A study of Mus musculus with 6 samples.

Results

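The genes Esam, Procr, Robo4, Tie1, Tek, Cd34, Eng, Cdh5, Myct1 and Fgd5 encode surface and membrane-linked proteins known from both blood stem cells and the lining of blood vessels. They were chosen by symbol, and all 10 were found once each among the 41128 genes of the deposited table. The table covers C57BL mouse bone marrow sorted for hematopoietic stem cells with long-term repopulating capacity, the cells that can rebuild the blood after transplantation. The sort took cells without lineage markers that carried Sca1, c-Kit and CD150 and lacked CD41 and CD48. Mice of the control group received the vehicle DMSO, and mice of the treated group received YH250 at 2 mg per kg under the skin, 16 h before the marrow was taken. YH250 is a small molecule that the submitters call a p300/catenin antagonist, and the question was which stem cell genes differ after it. There were 3 libraries per group, labelled 1 to 3 in each, called DMSO 1 to 3 and YH250 1 to 3 here. The labels do not say whether the libraries came from separate animals, so p-values measure only the spread between these libraries, which may be technical.

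Blood stem cells arise in the embryo from endothelium, and adult stem cells keep part of the endothelial surface programme. ESAM, a junctional adhesion molecule, and PROCR, the endothelial protein C receptor, are used to purify mouse stem cells, and reporters driven from Fgd5 mark them. TEK (also called TIE2) binds angiopoietins, TIE1 is its partner receptor, ROBO4 belongs to the Roundabout receptors, and endoglin (Eng) is a co-receptor for TGF-beta and BMP ligands. CD34, a sialomucin, behaves differently in the mouse: it is low on long-term stem cells and higher on their multipotent progeny. VE-cadherin (Cdh5) is the adhesion protein that defines endothelial junctions. In RNA from a sorted population, fewer cells of a type and less RNA per cell cannot be told apart.

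Levels are given as RPM, reads scaled to a library total of 1000000. A value of 1 RPM corresponded to 21.96 to 31.19 reads. The genes of the table summed to 70.0% and 77.9% of that total in DMSO 1 and YH250 1, 75.6% and 84.9% in the libraries numbered 2, and 95.9% and 93.6% in those numbered 3. Transcripts of the sort markers varied as well: Kit lay between 129.6 and 318 RPM, Ly6a, which encodes Sca1, between 80.9 and 319 RPM, and Slamf1, which encodes CD150, between 0.515 and 35.5 RPM. Cd48 lay between 10.2 and 258 RPM and Itga2b, which encodes CD41, between 5.65 and 43.7 RPM. The libraries numbered 3 held the high Cd48 levels (252 RPM or more), all others had 66.9 RPM or less, and Slamf1 was above 4.69 RPM only in the libraries numbered 1. Itga2b was highest in the libraries numbered 1. By treatment, Kit was lower in the YH250 library at each number, as 15% of tested genes were. Ly6a was higher at each number, as 16.1% were. Neither difference passed (adjusted p = 0.999 each, limma), and Slamf1, Cd48 and Itga2b ran both ways. As far as transcripts report on surface protein, high Cd48 in number 3 runs against the label CD48-, low Slamf1 in numbers 2 and 3 against CD150+, and the higher Itga2b in number 1 against CD41-. Each result is therefore given by number.

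YH250 and DMSO gave no called difference in any member. Between the libraries numbered 3 and those numbered 1, 9 of the 10 differed, as 8.56% of tested genes did. After limma on log2(RPM + 1), with p-values adjusted over all 13597 genes that reached a mean of 1 RPM and calls made under 0.05, 0% of tested genes and 0 of 10 members were called for YH250 against DMSO. All 10 members passed that minimum, and their adjusted p was 0.999 in each case. At an unadjusted p under 0.05 the same test gave 231 genes, 1.7% of those tested, and again 0 members. The members' differences were 5 positive and 5 negative, with a median log2 difference of -0.0017 against 0.02 over all tested genes. No member had its 3 YH250 libraries all above or all below the 3 DMSO libraries, a separation seen in 3.79% (above) and 3.68% (below) of tested genes. Without both libraries numbered 3, too, limma called 0 genes and 0 members, with 425 genes at an unadjusted p under 0.05. The fit for treatment had no term for number, whereas the fit for numbers had a term for treatment, so the calls are not like for like. With number as a block, limma also called 0 genes for YH250 against DMSO.

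**Figure D1:**
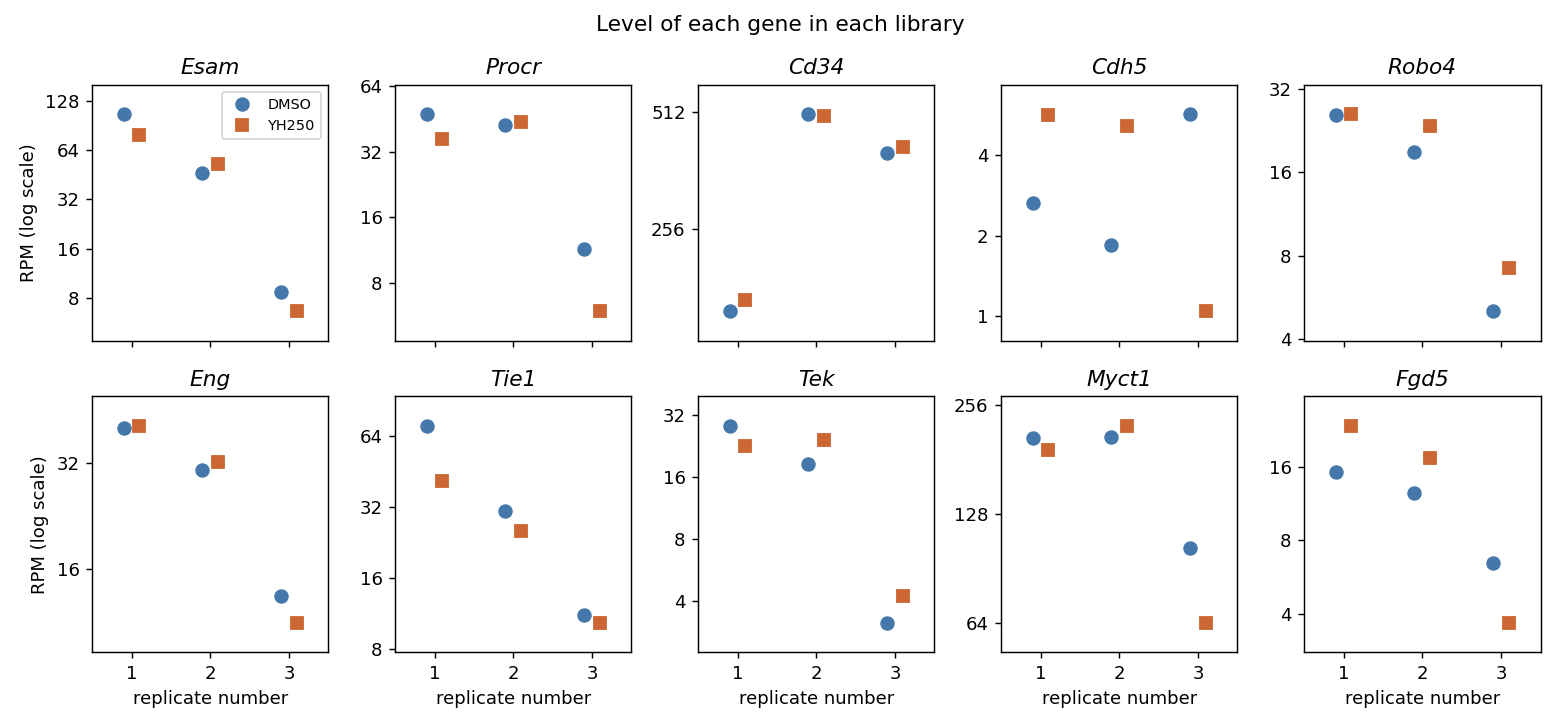
Level of each of the 10 genes in RPM (vertical axis, log scale, separate for each panel) in every library, by replicate number (horizontal axis). Circles are DMSO and squares YH250 libraries. Except for Cdh5, the symbols of one number lie closer together than those of numbers 1 and 3, and in 8 panels both libraries numbered 3 lie below the other 4.

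Esam, the gene of the endothelial cell-selective adhesion molecule (chromosome 9, 37528078 to 37538319, plus strand, in the build GRCm38 used for all positions), had 105, 46.5 and 8.79 RPM in the DMSO libraries 1 to 3, and the YH250 libraries 1 to 3 had 79.1, 52.7 and 6.67 RPM. Both libraries numbered 1 were highest and both numbered 3 lowest, and the treatment groups overlapped. The group values were 53.6 ± 48.7 and 46.2 ± 36.7 RPM (SD, n = 3 each, DMSO first, as in all pairs that follow). The log2 difference of YH250 minus DMSO was -0.20, with a 95% interval from -3.24 to 2.85, the widest of the members. The libraries numbered 3 differed from those numbered 1 by -3.41 ± 0.28 on the log2 scale (SE, adjusted p = 0.000131, limma), and from those numbered 2 by -2.54 ± 0.28 (adjusted p = 0.00142). Only 0.0515% of tested genes had a more negative difference between numbers 3 and 1. The level in DMSO 3 rested on 193 reads and that in YH250 3 on 160.0 reads.

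Cdh5, the VE-cadherin gene (chromosome 8, 104101625 to 104144511, plus strand), was the least abundant member and did not follow the others. Its levels in DMSO 1, 2 and 3 were 2.65, 1.84 and 5.69 RPM, against 5.67, 5.16 and 1.04 RPM in YH250, and rested on 25 to 177 reads. The YH250 library was the higher at numbers 1 and 2 and the lower at number 3. The group values were 3.39 ± 2.03 and 3.96 ± 2.54 RPM, with a log2 difference of 0.09 (95% interval -1.28 to 1.46). Between numbers 3 and 1 the difference was -0.42 ± 0.71 (adjusted p = 0.771). Replicate number accounted for 6.61% of the spread of its log2 values and treatment for 0.480%. The rest, 92.9%, lay in how the treatments differed from number to number. With 1 library per treatment and number, this cannot be told apart from variation of single libraries.

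Cd34, the sialomucin gene (chromosome 1, 194938819 to 194961279, plus strand), ran against the other members. The DMSO libraries 1 to 3 had 158, 505 and 402 RPM, and their YH250 counterparts had 168, 501 and 416 RPM. Both libraries numbered 1 lay below the other 4, a position shared by 10.6% of tested genes. The group values, 355 ± 178 and 362 ± 173 RPM, nearly coincided, and the log2 difference was 0.04 (95% interval -1.16 to 1.25). Within a number the treatments differed by 0.09, -0.01 and 0.05 on the log2 scale. Cd34 was higher in number 3 than in number 1 by 1.32 ± 0.18 (adjusted p = 0.00232) and higher in number 2 than in number 1 by 1.62 ± 0.18 (adjusted p = 0.0115). The difference between numbers 3 and 2 was -0.30 ± 0.18 (adjusted p = 0.338). It was the only member to pass between numbers 2 and 1, where 0.199% of tested genes passed (0.177% in the same direction). An antisense gene, Gm16897, overlaps its exons and stood at 2.58 to 9.01 RPM, and the use of strand in counting was not given in the sources used here, so reads in the overlap are uncertain.

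Procr, which encodes the receptor that presents protein C to its activator (chromosome 2, 155751117 to 155755471, plus strand), had 47.3, 42.3 and 11.5 RPM in DMSO 1, 2 and 3, against 36.4, 43.8 and 5.96 RPM in YH250. The 4 libraries numbered 1 and 2 stood close together, and both numbered 3 stood well below them. Group values were 33.7 ± 19.4 and 28.7 ± 20.1 RPM, and the log2 difference was -0.39 (95% interval -2.28 to 1.51). Procr was lower in number 3 than in number 1 by a log2 difference of -2.19 ± 0.32 (adjusted p = 0.00327) and than in number 2 by -2.24 ± 0.32 (adjusted p = 0.00505). Between numbers 2 and 1 the difference was 0.05 ± 0.32 (adjusted p = 0.963).

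The angiopoietin receptor gene Tek (chromosome 4, 94739289 to 94874976, plus strand) had 28.4, 18.5 and 3.14 RPM in DMSO 1, 2 and 3, against 22.6, 24.2 and 4.25 RPM in YH250. Its paralog Tie1, on the same chromosome (118471191 to 118490061, minus strand), had 70.6, 30.7 and 11.2 RPM in DMSO and 41.2, 25.3 and 10.4 RPM in YH250. For both genes the libraries numbered 3 were the lowest. Tie1 was lower in the YH250 library at each of the 3 numbers, which 15% of tested genes were, with log2 differences of -0.76, -0.27 and -0.10. Its group values were 37.5 ± 30.3 and 25.6 ± 15.4 RPM (log2 difference -0.38, 95% interval -1.95 to 1.19), and those of Tek were 16.67 ± 12.7 and 17.002 ± 11.1 RPM (0.13, 95% interval -1.79 to 2.05). Tek in number 3 differed from number 1 by -2.50 ± 0.39 (adjusted p = 0.00445) and Tie1 by -2.22 ± 0.30 (adjusted p = 0.00231). Against number 2 the values were -2.25 ± 0.39 (adjusted p = 0.0115) and -1.30 ± 0.30 (adjusted p = 0.0371). The low levels of Tek in number 3 rested on 69 reads in DMSO 3 and 102 in YH250 3.

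Robo4 (chromosome 9, 37401897 to 37415115, plus strand), a receptor gene that acts in stem cell lodging in the marrow and in vessel stability, had 25.7, 18.9 and 5.05 RPM in DMSO 1, 2 and 3, against 25.9, 23.5 and 7.25 RPM in YH250. The libraries numbered 3 were the lowest in both groups. Robo4 was the only member higher in the YH250 library at all 3 numbers, which 16.1% of tested genes were. The size at number 1 was 0.01 on the log2 scale, and at numbers 2 and 3 it was 0.30 and 0.45. With each library rescaled to the same gene sum, the value at number 1 turned to -0.14, Tie1 was still lower at every number, and Procr, Eng and Myct1 were so as well. Rescaling also moved the median treatment difference over all tested genes from 0.02 to -0.07. The share of tested genes lower at every number was not computed for that scaling. These members therefore cannot be set against it. Group values were 16.5 ± 10.5 and 18.9 ± 10.1 RPM, and the log2 difference was 0.25 (95% interval -1.20 to 1.70). It differed by -1.92 ± 0.35 (adjusted p = 0.0103) between numbers 3 and 1 and by -1.64 ± 0.35 (adjusted p = 0.0274) between numbers 3 and 2.

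Eng, the endoglin gene (chromosome 2, 32646595 to 32682669, plus strand), had 40.3, 30.5 and 13.4 RPM in DMSO 1, 2 and 3, against 40.8, 32.2 and 11.2 RPM in YH250. The order by number was the same in both groups, number 1 above number 2 above number 3, and 99.0% of the spread lay between numbers. Group values were 28.1 ± 13.6 and 28.1 ± 15.2 RPM, with a log2 difference of -0.05 (95% interval -1.26 to 1.16). Eng differed by -1.65 ± 0.29 (adjusted p = 0.00822) between numbers 3 and 1 and by -1.29 ± 0.29 (adjusted p = 0.032) between numbers 3 and 2. Its exons overlap those of Fpgs on the other strand, which stood at 16.7 to 26.4 RPM, so reads in the overlap are uncertain.

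Myct1 (chromosome 10, 5593775 to 5606904, plus strand) encodes a small membrane protein first described as a target of Myc. Its levels were 207, 208 and 103 RPM in DMSO 1, 2 and 3, against 192, 224 and 63.9 RPM in YH250. Fgd5 (chromosome 6, 91978878 to 92076004, plus strand) encodes an exchange factor that activates the GTPase Cdc42. Fgd5 had 15.3, 12.4 and 6.47 RPM in DMSO and 23.5, 17.4 and 3.67 RPM in YH250, in the same order. Both genes were lowest in the libraries numbered 3. At numbers 1 and 2 Fgd5 was the higher in YH250, by 0.59 and 0.46 on the log2 scale, and at number 3 the lower, with -0.68. Group values were 173 ± 60.7 and 159.7 ± 84.5 RPM for Myct1 (log2 difference -0.23, 95% interval -1.33 to 0.87) and 11.4 ± 4.50 and 14.9 ± 10.2 RPM for Fgd5 (0.12, 95% interval -1.30 to 1.55). Myct1 in number 3 differed from number 1 by -1.29 ± 0.23 (adjusted p = 0.00852) and Fgd5 by -1.76 ± 0.44 (adjusted p = 0.0405). Against number 2 the values were -1.40 ± 0.23 (adjusted p = 0.00943) and -1.41 ± 0.44 (adjusted p = 0.0878), so Fgd5 did not pass there.

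**Figure D2:**
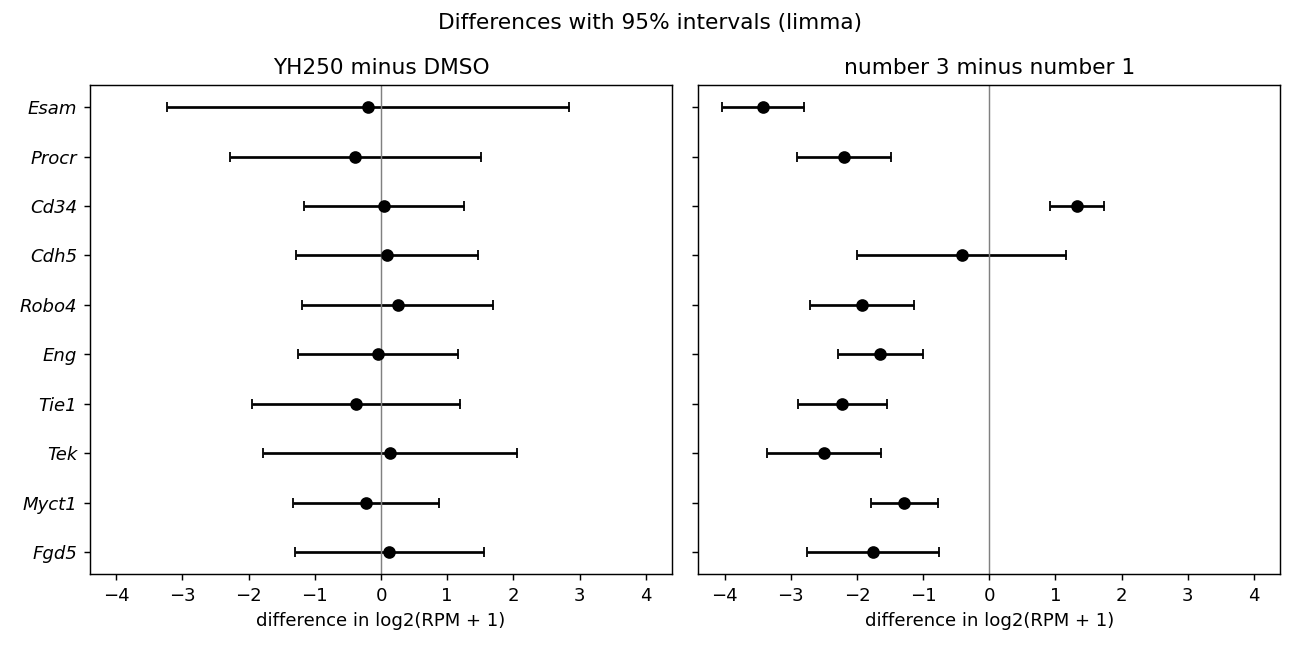
Difference in log2(RPM + 1) for each gene (points) with its 95% interval from limma (bars), for YH250 minus DMSO (left) and for the libraries numbered 3 minus those numbered 1 (right). Every interval on the left holds 0, and on the right only that of Cdh5 does. The fit on the left had no term for number, so its intervals include the spread between numbers.

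By call, 8 members (Esam, Procr, Robo4, Tie1, Tek, Eng, Myct1 and Fgd5) were lower in number 3 than in number 1, where 2.96% of tested genes passed in that direction, and Cd34 was higher, where 5.6% passed. In either direction 8.56% of tested genes passed. Of the 8 lower members 7, all but Fgd5, were also lower in number 3 than in number 2, against 2.64% of tested genes in that direction and 6.31% in either. The remaining direction, higher in number 3 than in number 2, held 3.67% of tested genes and 0 members. The median log2 difference of the members was -1.84 between numbers 3 and 1 and -1.41 between numbers 3 and 2, against 0.04 and 0.08 over all tested genes. In 8 of 10 members both libraries numbered 3 lay below the other 4, which 14.3% of tested genes did. The opposite position, both above the other 4, held 19.9% of tested genes and 0 members. Esam, Robo4, Tie1 and Eng also had both libraries numbered 1 above the other 4, against 9.58% of tested genes. For 9 members replicate number took most of the spread of the log2 values, 87.2% to 99.8%, and treatment took 0.0946% to 4.03%. The share of all tested genes with most of their spread by number was not computed, so this count has no background. Number also has more levels than treatment and tends to take more of the spread for that reason alone. With each library rescaled so that its genes sum to the same total, the median over all genes moved to -0.28 between numbers 3 and 1. The members' median moved to -2.19. Again 9 members were called between numbers 3 and 1 and 7 between numbers 3 and 2. The calls over all tested genes rose to 1356 and 1038, against 1164 and 858 with the authors' scaling. The minimum mean was applied after rescaling, so the set of tested genes can differ. Of the genes called between numbers 3 and 1, 65.4% were higher in number 3 with the authors' scaling and 34.3% after that rescaling.

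The counts of calls differed with the set of genes tested, the limma settings and the libraries. With no minimum mean, which brings the tested genes to 27592, 2 members passed between numbers 3 and 1 (Esam and Cd34), 0 between numbers 3 and 2 and 0 between numbers 2 and 1. Without trend and robust estimation in limma the counts were 6, 1 and 0. Without DMSO 1, 5 members and 485 of 13597 genes passed between numbers 3 and 1. Without DMSO 3 these were 5 and 414, and without YH250 3 they were 6 and 810, against 9 and 1164 with all libraries. For numbers 3 and 2, 3 members and 252 genes passed without DMSO 3 and 4 members and 500 genes without YH250 3, against 7 and 858. In these fits 1 number had a single library, which was assumed to vary like the others. Their counts are therefore not like for like with those from all libraries, and the cause of the change was not tested. Each of the 8 lower members had a negative difference between numbers 3 and 1, and between numbers 3 and 2, in every fit.

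The plot of all tested genes shows where the members fall among them.

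**Figure D3:**
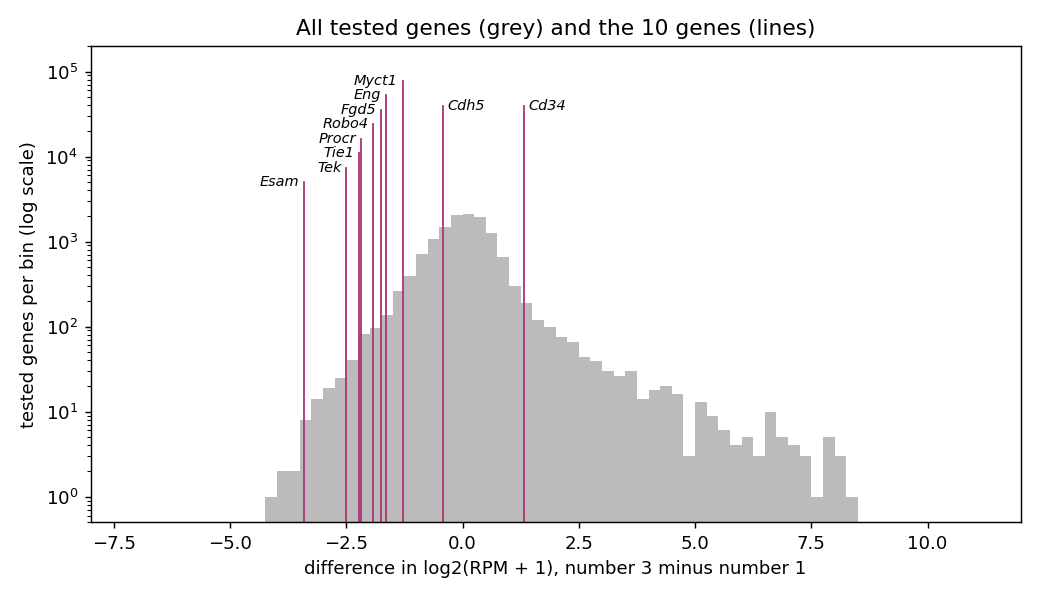
Number of tested genes (grey bars, log scale) by their difference in log2(RPM + 1) between the libraries numbered 3 and those numbered 1, with the 10 genes drawn as lines. Esam lies at -3.41, the other 7 lower genes between -2.50 and -1.29, Cdh5 at -0.42 and Cd34 at 1.32.

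Levels of different genes can be compared only per length, for which the mean RPM was divided by the kilobases of exon in the annotation (2.03 kb for Procr to 7.29 kb for Cd34). Over all 6 libraries the order from high to low was Myct1 at 58.4, Cd34 at 49.2, Esam at 17.4, Procr at 15.4, Eng at 6.93, Tie1 at 6.42, Tek at 3.57, Robo4 at 3.34, Fgd5 at 2.09 and Cdh5 at 0.874 RPM per kb. The order changed between numbers. In number 1 Esam (32.2) stood above Cd34 (22.3) and Procr (20.6), whereas in number 3 Cd34 (56.1) and Myct1 (29.3) stood above Procr at 4.29 and all others. The ratio of number 1 to number 3 in mean RPM ranged from 2.40 for Myct1 to 11.9 for Esam among the 8 lower members. Neighbours in the overall order, such as Eng and Tie1 or Tek and Robo4, were closer than the spread over libraries. The exon lengths are those of GENCODE M21, and the authors' own gene models were not given in the sources used here.

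**Figure D4:**
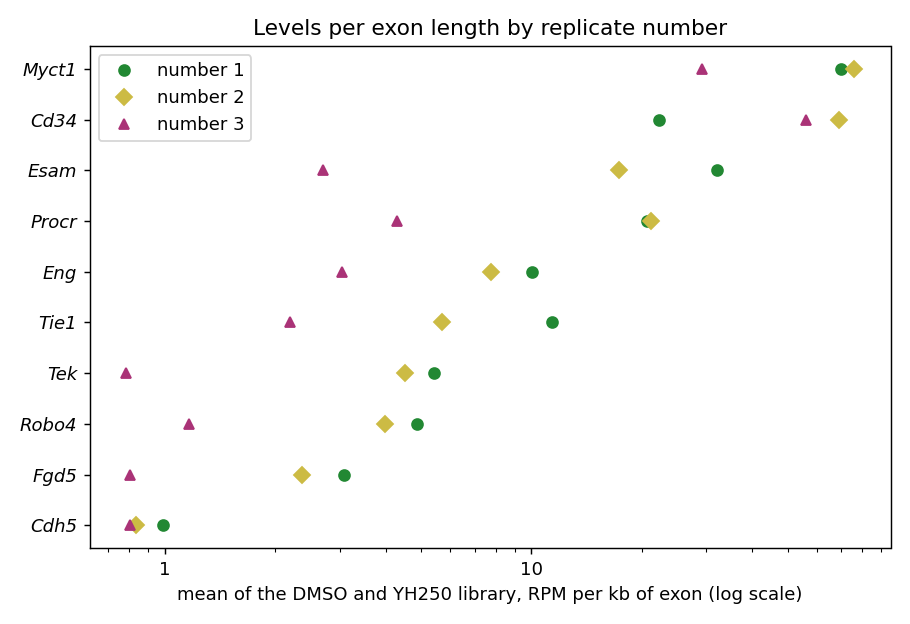
Mean level of each gene at each replicate number (mean of the DMSO and the YH250 library) in RPM per kb of exon (horizontal axis, log scale). Circles, diamonds and triangles are numbers 1, 2 and 3. For every gene but Cd34 the triangle lies to the left of the other symbols, by the smallest distance for Cdh5 (0.801 RPM per kb, against 0.832 in number 2).

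Among the members' ligands and partners, no gene passed between YH250 and DMSO, with limma over all tested genes. Of the Tie list, 3 of 5 genes were tested. The ligand Angpt1 was abundant, at 447, 456 and 278 RPM in DMSO 1, 2 and 3 and 513, 265 and 192 RPM in YH250 1, 2 and 3, and was lower in number 3 than in number 1 (-1.05 ± 0.24, adjusted p = 0.0293). The antagonist Angpt2 did not exceed 5.36 RPM, and the phosphatase gene Ptprb, which acts on TEK, did not exceed 2.68 RPM. Svep1, whose extracellular product binds TIE1, did not exceed 2.07 RPM. Of the Slit and Robo genes 3 of 9 were tested and 0 passed between numbers 3 and 1. Srgap2, which encodes a GTPase-activating protein that binds Robo receptors, led the list with a mean of 18.6 RPM, followed by Robo3 at 3.30 and Srgap1 at 2.28 RPM. Robo1 reached 2.08 RPM at most, and no Slit gene exceeded 1.35 RPM. Of the protein C pathway 5 of 9 were tested and 0 passed between numbers 3 and 1. The thrombin receptor F2r had a mean of 27.2 RPM and the related F2rl3 22.8 RPM, and F2rl3 was lower in number 3 than in number 2 (-1.77 ± 0.31, adjusted p = 0.0131). Thbd, which encodes the thrombomodulin that starts protein C activation, had a mean of 7.16 RPM, and Pros1, the gene of the cofactor protein S, 6.70 RPM.

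In the endoglin list 13 of 16 genes were tested, and between numbers 3 and 1 Id2 was higher and Tgfbr3 lower. Id2, a target of BMP signalling and also an inhibitor of lineage factors, went from 7.98 and 34.7 RPM in number 1 to 241 and 237 RPM in number 3 (3.74 ± 0.41, adjusted p = 0.000675). Tgfbr3, a co-receptor like endoglin, differed by -1.96 ± 0.44 (adjusted p = 0.0256). The receptors Bmpr2 and Tgfbr2 had means of 48.1 and 39.04 RPM and the signal transducers Smad5 and Smad4 of 45.8 and 43.7 RPM, whereas Acvrl1, the endothelial receptor with which endoglin works, did not exceed 0.820 RPM. Of the junction list 8 of 10 genes were tested and 3, all JAM family members, were lower in number 3 than in number 1: F11r (-2.22 ± 0.37, adjusted p = 0.0066), Jam3 (-2.22 ± 0.42, adjusted p = 0.0127) and Jam2 (-2.73 ± 0.56, adjusted p = 0.0173). The catenins Ctnnb1, Ctnna1 and Ctnnd1, with means of 146, 51.6 and 24.98 RPM, did not pass (differences of 0.29, -0.06 and -1.08).

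The sialomucin list ran both ways. The selectin ligand gene Selplg was higher in number 3 than in number 1 (1.02 ± 0.20, adjusted p = 0.0132). Podxl, the relative of Cd34, was lower there (-2.19 ± 0.54, adjusted p = 0.0371) and did not exceed 5.83 RPM. P-selectin (Selp) and the adaptor Crkl, with means of 9.74 and 7.81 RPM, did not pass. The relatives of Fgd5 were tested in full, 6 of 6 with Cdc42, and 0 passed between any numbers. Cdc42 had a mean of 475 RPM, Fgd4 of 95.9, Fgd2 of 26.7 and Fgd3 of 6.20 RPM. Among 17 tested transcription factors shared by blood and endothelium, Meis1, Gata2, Mecom and Sox18 were lower in number 3 than in number 1, with differences of -1.29, -1.89, -1.97 and -2.18, and Ets1 was higher (1.85 ± 0.27, adjusted p = 0.00361). Lmo2, Elf1 and Etv6, with means of 629.6, 201 and 159.02 RPM, did not pass there, nor did Fli1, Erg, Tal1, Lyl1 and Runx1.

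Markers of other cells moved with number. Of 20 genes listed as endothelial markers, 16 were tested. Sox18 is in this list and also among the transcription factors, so its call is counted in both. Their summed level was 86.8 and 121 RPM in the libraries numbered 1 (DMSO first), 60.9 and 161 RPM in those numbered 2, and 33.1 and 34.0 RPM in those numbered 3. In number 3, 5 were lower than in number 1 (Ecscr, Fabp4, Cldn5, Sox18 and Clec14a) and 0 higher. By treatment the sum ranged from 33.1 to 86.8 RPM in DMSO and from 34.0 to 161 RPM in YH250. The VEGF receptor genes Kdr and Flt1 did not exceed 6.22 and 4.12 RPM, and Lyve1, a marker of lymphatic and sinusoidal endothelium, was at 0 in all libraries. The highest levels in the list were 44.97 RPM for Plvap, 27.5 RPM for Fabp4 and 20.9 RPM for Mmrn2, all in YH250 2, and 26.2 RPM for Ecscr in YH250 1. Stab2 lay between 4.68 and 18.2 RPM. Of 10 genes found in both endothelium and blood stem cells, 3 were lower in number 3 than in number 1 (Tgm2, Vwf and Clec1a), whereas Egfl7, Icam2 and Pecam1, with means of 108, 55.3 and 48.1 RPM, did not pass. The part of endothelial RNA in the members' difference by number was not tested.

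Of 14 stromal markers 11 were tested, and their sum was 369 RPM in YH250 2, against 24.2 to 87.7 RPM in the other 5 libraries, with Cxcl12 at 202 and Lepr at 58.2 RPM there. Without YH250 2 the members called between numbers 3 and 1 and between numbers 3 and 2 were also 9 and 7, but the genes called were 2944 and 1235 of 13597, against 1164 and 858 with all libraries. Of 12 stem cell genes outside the members all were tested, and 10 were lower and 0 higher in number 3 than in number 1, among them Ifitm1 and Mllt3 (-1.05 and -2.10) and the transcription factor Hlf (-1.19 ± 0.18, adjusted p = 0.00404). Of 8 genes of multipotent progenitors, all tested, 6 were higher in number 3 and 0 lower. DMSO 1 and YH250 1 had sums of 156 and 206 RPM, DMSO 2 and YH250 2 had 647 and 742, and DMSO 3 and YH250 3 had 1902 and 1760.2. Dntt, the terminal transferase of lymphoid-primed progenitors, differed by 6.17. For Flt3, a receptor of these progenitors, the level was already higher in number 2 than in number 1 (3.02 ± 0.20, adjusted p = 0.000612), as Cd34 was. Of 8 tested B cell markers, 8 were higher in number 3 than in number 1, and so were 4 of 9 T and NK cell markers and 2 of 10 myeloid markers. Summed B cell markers reached 64.2 RPM (DMSO 1) and 172 RPM (YH250 1), against 684 RPM (DMSO 3) and 834 RPM (YH250 3). Of 9 megakaryocyte and erythroid markers, 3 were lower in number 3. The part of these cells in the members' levels was not tested.

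**Figure D5:**
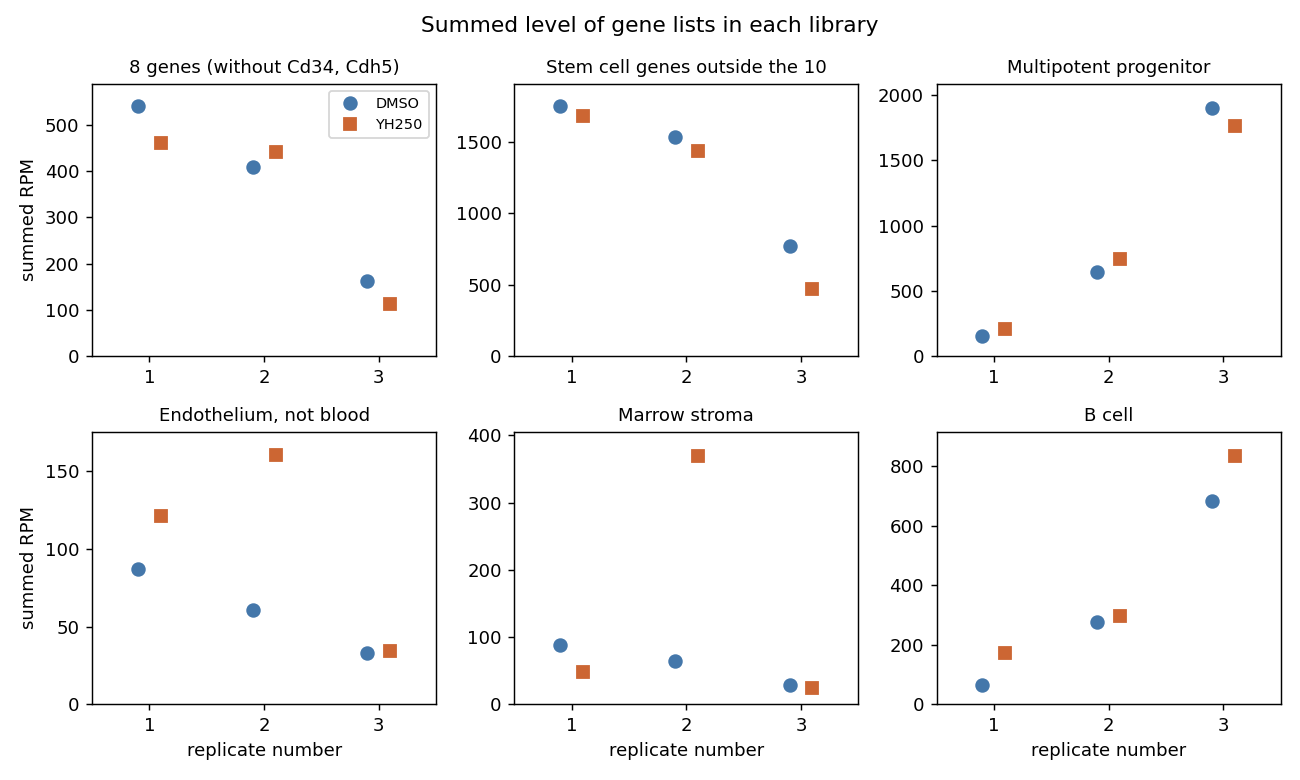
Summed level in RPM (vertical axes from 0) of 6 groups of genes in every library by replicate number (horizontal axis). Circles are DMSO and squares YH250 libraries. The 8 members other than Cd34 and Cdh5, a set picked after their values were seen, sum to 113 and 162 RPM in the libraries numbered 3 and to 408 RPM or more in the others, and the multipotent progenitor sum is largest in number 3.

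The 8 lower members followed each other across the 6 libraries, with Pearson r between 0.82 and 0.995 (median 0.94 over 28 pairs, log2 values). Cd34 had r between -0.69 and -0.27 with them, and Cdh5 between 0.14 and 0.56. The 8 were grouped by their lower levels in number 3 of these same libraries. High r among them and lower r with Cd34 and Cdh5 follow in part from that choice. The values also share their libraries and scaling and are a description only. Among 8559 other genes whose mean reached 10 RPM, the profile nearest to the average of the members was that of Gstt3, followed by Hdac10 (r = 0.996 and 0.995 over 6 libraries). The nearest profile to Esam was that of Tfr2 (r = 0.996), to Procr that of the homeobox gene Nkx2-3 (0.994), to Robo4 that of Por (0.996), to Tek that of Tssc4 (0.999) and to Eng that of Ece1 (0.994). Tie1 was nearest to Nsmf and had Mecom in the third place (0.992 and 0.989), Myct1 was nearest to Trim8 (0.996) and Fgd5 to Cavin3 (0.991). For Cd34 the nearest was Clcn4 (0.988) and for Cdh5 Snhg12 (0.944). Apart from Hdac10 and Mecom, each value is the highest of 8559.

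The promoters of members are shown because 8 of them were lower in the same libraries and Cd34 was not. RefSeq (build GRCm38.p6) gave windows for 8 members, Cd34, Eng, Procr, Tek, Tie1, Fgd5, Robo4 and Myct1, and the 250 bases before the start were searched on both strands for 6 motifs. The letters AGGAAG, a core of ETS family sites, were in 5 of the 8 windows (Cd34, Eng, Tie1, Fgd5 and Robo4), against 29.5% of 32851 promoters. Of the 250 bases, 212 in the Tie1 window, 100 in that of Procr, 87 in that of Fgd5 and 75 in that of Robo4 lie inside the GENCODE gene, so these windows are only partly upstream of the GENCODE start. The E-box CAGATG was in 2 (Eng and Tie1) against 14.4%, the GATA site AGATAA in 1 (Myct1) against 9.99%, and the TATA box TATAAA in 1 (Myct1) against 12.4%. The ETS form CCGGAA and the RUNX site TGTGGT were in 0 of 8, against 12.03% and 14.05%. The motifs searched do not contain each other. The windows of Eng, Myct1 and Tek, which were lower in number 3, and of Cd34, which was not, are shown 5′ to 3′ in lower case with every match in capitals, CTTCCT being AGGAAG on the other strand. They lie at chr2:32646345-32646594, chr10:5593478-5593727, chr4:94739039-94739288 and chr1:194938571-194938820, all on the plus strand.
Eng: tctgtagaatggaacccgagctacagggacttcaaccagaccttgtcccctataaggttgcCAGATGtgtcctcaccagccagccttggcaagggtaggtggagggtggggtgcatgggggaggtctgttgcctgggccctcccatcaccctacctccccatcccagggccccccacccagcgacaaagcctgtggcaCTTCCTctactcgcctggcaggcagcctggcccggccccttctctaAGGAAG
Myct1: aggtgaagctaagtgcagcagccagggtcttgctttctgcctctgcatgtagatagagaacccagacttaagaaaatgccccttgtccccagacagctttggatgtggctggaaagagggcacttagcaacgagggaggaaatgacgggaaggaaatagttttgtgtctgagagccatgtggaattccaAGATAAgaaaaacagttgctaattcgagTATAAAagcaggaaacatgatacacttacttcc
Tek: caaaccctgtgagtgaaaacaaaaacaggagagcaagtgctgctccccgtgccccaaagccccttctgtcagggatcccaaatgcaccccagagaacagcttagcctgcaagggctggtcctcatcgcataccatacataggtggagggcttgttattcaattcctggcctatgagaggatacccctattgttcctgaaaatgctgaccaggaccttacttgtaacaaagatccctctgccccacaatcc
Cd34: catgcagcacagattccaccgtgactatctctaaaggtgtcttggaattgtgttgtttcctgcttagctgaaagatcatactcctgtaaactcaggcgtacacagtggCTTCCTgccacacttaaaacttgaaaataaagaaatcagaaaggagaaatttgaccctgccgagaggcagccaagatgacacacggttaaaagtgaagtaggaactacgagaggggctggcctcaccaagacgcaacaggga
In Eng the ETS core began 52 and 6 bases before the start and the E-box 189 bases before it. Myct1 had its GATA site 61 and its TATA box 33 bases before the start, Cd34 its ETS core 142 bases before it, and Tek none of the 6 motifs in this window. A match is a description of the letters and not evidence of binding, and a window without one says nothing of the factor. The same ETS core stood in windows of lower members and in that of Cd34. The GC content of the 4 windows was 62.4%, 45.6%, 51.2% and 46.4% for Eng, Myct1, Tek and Cd34.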

How the data were processed

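Poly(A) RNA of 6 sorted populations was amplified with an ultra-low-input kit and sequenced as 50-base single-end reads, per the labels. The deposited table holds a normalized signal made by the authors for 41128 Ensembl genes. Partek, TopHat2 2.0.8, CASAVA 1.8.2 and mm10 are listed in the submitters' processing notes, with a counting rule not given in the sources used here. Every column has a lowest value of 1 and the excess falls in equal steps, so the signal was read as RPM plus 1 and the offset removed. The step size gives the reads behind a value, with 1 RPM equal to 21.96 to 31.19 reads. Of values of 20 reads or fewer, 61.1% to 68.4% came within 0.1 of whole reads, so no count model was used. The values of 6 members (Esam, Procr, Robo4, Tek, Cdh5 and Fgd5) were whole reads within that tolerance in every library. Symbols matched 40254 genes. Positions and exon lengths are from GENCODE M21 (GRCm38, the mm10 assembly).

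The 13597 genes whose mean over the 6 libraries reached 1 RPM were fitted as log2(RPM + 1) with limma 3.58.1 in R 4.3.3 (trend and robust) and Benjamini-Hochberg adjustment at 0.05. Changes of low genes are understated on this scale. The treatment contrast had treatment as its only term. Contrasts between replicate numbers, with 2 libraries each, also included treatment. Libraries of the same number in both groups deviated together from their group means (r = 0.55, 0.26 and 0.70 for numbers 1, 2 and 3). Only the fit with number as a block treated the numbers as pairing the libraries. The treatment differences, intervals and p-values printed for each member come from the fit without it. Those intervals and p-values therefore include the spread between numbers. With the number as a replicate block, 0 genes and 0 members passed for YH250 minus DMSO. The script was tested on simulated data. For the treatment contrast these had no differences between numbers, so they do not show how many real differences would be found here. Of each partner and marker list the up to 4 genes with the highest mean were to be named, and for likeness those with the highest r. Other list genes were named after their values were seen, and some that the rule names are not reported here. The members and lists were chosen with earlier results of these data known. Alternatives changed the pseudocount, minimum mean, scaling, limma settings, block and libraries.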

Additional observations from a re-analysis of the deposited data

How the results depend on the processing

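For YH250 minus DMSO, limma called 0 genes and 0 members in every fit. With the replicate block the members' adjusted p lay between 0.677 and 0.971, and 1012 genes had an unadjusted p under 0.05, against 231 without it. The block changed no call. With no minimum mean, 180, 42 and 0 genes and 2, 0 and 0 members passed between numbers 3 and 1, 3 and 2, and 2 and 1. Without trend and robust estimation the genes were 526, 154 and 0 and the members 6, 1 and 0. A minimum mean of 5 RPM gave 75 genes between numbers 2 and 1 and quantile normalization 46, against 27. Leaving out 1 library gave 414 to 2944 genes and 5 to 9 members between numbers 3 and 1, 252 to 3122 genes and 3 to 8 members between numbers 3 and 2, and 43 to 1743 genes between numbers 2 and 1. Gene counts were lowest without DMSO 3 in the first 2 contrasts and without DMSO 1 in the last, and highest without YH250 2, DMSO 2 and DMSO 2. The causes were not tested.

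Signs turned only among differences that were not called. After rescaling, YH250 minus DMSO was -0.052 for Cd34, and number 2 minus number 1 was -0.064 for Procr and -0.0026 for Myct1. After quantile normalization these were -0.085, -0.035 and -0.042. Of the called genes, 49.3% were higher in number 3 than in number 1 after quantile normalization, against 65.4%. Against number 2 the shares were 58.2% as deposited, 33.1% rescaled and 45.5% after quantile normalization. Without both libraries numbered 1, YH250 minus DMSO was -0.30 for Cdh5 and -0.11 for Fgd5. Without those numbered 2 it was -0.42 and -0.043, and without those numbered 3 it was 0.046 for Eng. Fits without 1 library kept treatment as the only term, so the groups no longer held the same numbers. The treatment ranges that follow therefore include differences between numbers. Within numbers 1, 2 and 3, Esam differed by -0.41, 0.18 and -0.35. Leaving out 1 library put YH250 minus DMSO between -1.15 and 0.84 for Esam, -1.01 and 0.46 for Procr, -0.39 and 0.80 for Robo4, -1.03 and 0.24 for Tie1, and -0.71 and 0.87 for Tek. It lay between -0.46 and 0.52 for Cd34, -0.49 and 0.49 for Eng, -0.21 and 0.64 for Cdh5, -0.57 and 0.33 for Myct1, and -0.34 and 0.85 for Fgd5. Cdh5 then lay between -1.77 and 0.94 for number 3 minus number 1, -1.53 and 1.18 for number 3 minus number 2, and -1.01 and 0.53 for number 2 minus number 1. The last contrast gave -0.59 to 0.088 for Tek, -0.69 to 0.0068 for Fgd5, -0.27 to 0.38 for Procr and -0.13 to 0.36 for Myct1. Levels under 10 RPM, such as Tek in number 3 with 69 and 102 reads, are the least precise by counting.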
